A study of Mus musculus with 24 samples.

Results

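Proteasome genes were taken from the gene table by name: every protein-coding gene whose symbol is Psma, Psmb, Psmc, Psmd, Psme or Psmg followed by a number. The rule found 49 of the 48709 genes. Of these, 48 encode subunits, activators or assembly chaperones of the proteasome, and 1, Psmc3ip, encodes a protein that binds the ATPase Psmc3 but is not a subunit. The RNA was drawn from cerebral cortex and whole blood of neonatal pups (labelled C57BL/6J and 3 to 5 days old, but C57BL/6NJ and day 5 in the study's methods), whose dams had breathed either re-aerosolized nano-sized particulate matter (nPM) from urban air or filtered air (control) from gestational day 2 until birth. Each tissue had 12 libraries, 3 for each combination of sex (female or male) and exposure (nPM or control), and no animal carried an engineered allele. By the study's methods the pups of a sex and exposure group were of different litters. Whether a male and a female of the same exposure shared a litter is not given. The study describes blood and cortex as taken from the same animals, but the labels do not tie blood and cortex libraries to a pup. Tests between tissues therefore treated the libraries as independent.

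The proteasome degrades ubiquitin-tagged proteins. Its 20S core is a barrel of alpha rings (Psma genes) around beta rings (Psmb genes), and only the beta subunits Psmb5, Psmb6 and Psmb7 cut peptide bonds in the constitutive core. Interferon and immune cell types switch on Psmb8, Psmb9 and Psmb10, which take the places of Psmb5, Psmb6 and Psmb7 in new cores and form the immunoproteasome, a source of peptides for MHC class I. The 19S regulator, made of ATPases (Psmc genes) and non-ATPase subunits (Psmd genes), unfolds substrates and feeds them into the barrel. Other caps are PA28 alpha and beta (Psme1, Psme2), which are interferon-inducible, PA28 gamma in the nucleus (Psme3) and PA200 (Psme4). Psmg1 to Psmg4 and the 19S chaperones Psmd5, Psmd9 and Psmd10 help assembly and leave the finished particle.

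By these roles the members fell into 7 constitutive alpha subunits, 4 structural beta subunits, 3 constitutive catalytic beta subunits, 3 immunoproteasome beta subunits, 6 ATPases and 11 non-ATPase subunits of the 19S regulator, 3 chaperones of the 19S regulator and 4 of the 20S core, 3 immune PA28 genes (Psme2b is a retro-copy of Psme2) and 2 other activators. A testis alpha subunit (Psma8) and a thymus beta subunit (Psmb11) completed the set. The genes lay on 16 chromosomes of mm10 (GRCm38), with 10 on chromosome 11 and 6 on chromosome 14. Psmb9 (chr17:34181988-34187764) and Psmb8 (chr17:34197721-34201454) flank Tap1, a peptide transporter gene of the MHC region, and the annotated Psmb9 overlaps Tap1 on the opposite strand. Overlap with another annotated gene was found for 23 of the members, including Psmb8, Psmb10, Psme1 and Psme2b, and 4 processed pseudogenes carry a proteasome subunit's name. Whether reads were counted by strand is not given in the sources used here, so values of such genes may hold reads of a partner or copy.

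Total counts ran from 22301409 to 33804371 in cortex and from 13595647 to 21895536 in 11 blood libraries, where globin genes took 66.2% to 76.8% of the counts. The 12th blood library, the female control V2, stood apart: globin took 50.1% of its counts, it had 22461 genes with a count against 13254 to 17273 in the others, and the summed astrocyte markers reached 413 CPM (counts per 1e+06 counts of the library) against 1.90 to 34.3. It was left out of the blood fits, and each blood comparison with female controls was also run with it. The erythroid marker list summed to at least 697485 CPM in those 11 blood libraries and the neuron list to at least 3755 CPM in every cortex library, while the erythroid list reached at most 877 CPM in cortex. The libraries V5 (blood, male nPM, neuron markers at 15.7 CPM), V22 (blood, male control, interferon list at 761 CPM), V14 (cortex, male control, choroid plexus list at 31.7 CPM) and V24 (cortex, male control, microglia list at 282 CPM) had the extreme value of that list in their tissue, V2 aside. The 49 members together held 79778 to 124741 counts per cortex library but only 14113 to 28860 per blood library.

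In cortex the constitutive core subunits differed by a few fold among themselves and lay above the PA28 and PA200 caps and the chaperones by mean level. In RPKM (reads per kilobase of gene per 1e+06 counts, with TMM scaling within a tissue), the 14 constitutive core subunits ran from Psmb3 at 27.95 ± 2.36 to Psmb1 at 112 ± 6.85 (mean ± SD, n = 12). The ATPases ran from Psmc2 at 17.8 ± 0.783 to Psmc1 at 84.4 ± 5.13. The non-ATPase subunits ran from Psmd11 at 5.94 ± 0.285 to Psmd2, a scaffold in the base of the regulator, at 68.6 ± 3.45. Among the caps, Psme1 stood at 20.6 ± 1.96, Psme3 at 18.5 ± 0.651, Psme4 at 14.4 ± 0.971, Psme2 at 8.51 ± 0.980 and Psme2b at 6.92 ± 1.18. The first pair and the last pair in that order overlapped in their ranges over libraries.

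The immunoproteasome subunits were not alike in cortex. Psmb10 had 14.2 ± 1.33 RPKM, within the range of the 19S subunits, whereas Psmb8 had 0.497 ± 0.128 and Psmb9 0.166 ± 0.0972 (n = 12). Their counts were 25 to 64 and 9 to 52 per library, against 519 to 925 for Psmb10. The tissue-restricted subunits lay lower still or alongside, with 6 to 16 counts for Psma8 and 0 to 4 for Psmb11, which had no count in 6 of the 12 libraries. In blood, Psma8 had no count in 8 of 11 libraries and Psmb11 had none in all 11, which allows up to 0.137 to 0.221 CPM per library at 3 counts, for counting error only.

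Blood had a different order. The highest member by a wide margin was Psme3 at 261 ± 37.1 RPKM (n = 11), followed by the polyubiquitin receptor Psmd4 at 24.6 ± 6.38, Psme4 at 8.71 ± 3.92 and Psma2 at 6.72 ± 1.77. The other core subunits ran from Psma1 at 0.621 ± 0.176 to Psmb1 at 3.72 ± 0.440, and the ranges over libraries overlapped between Psmd4 and Psme4 and between Psme4 and Psma2. The geometric mean of the 14 core subunits, in RPKM on total counts without TMM scaling, was 0.944 to 1.90 in the 11 blood libraries, 17.7 in V2 and 46.2 to 53.7 in cortex. Because most of a blood library is globin, and because in bulk tissue fewer cells of a type and less RNA per cell cannot be told apart, tissues were compared by setting each member against this core mean inside its own library.

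**Figure D1:**
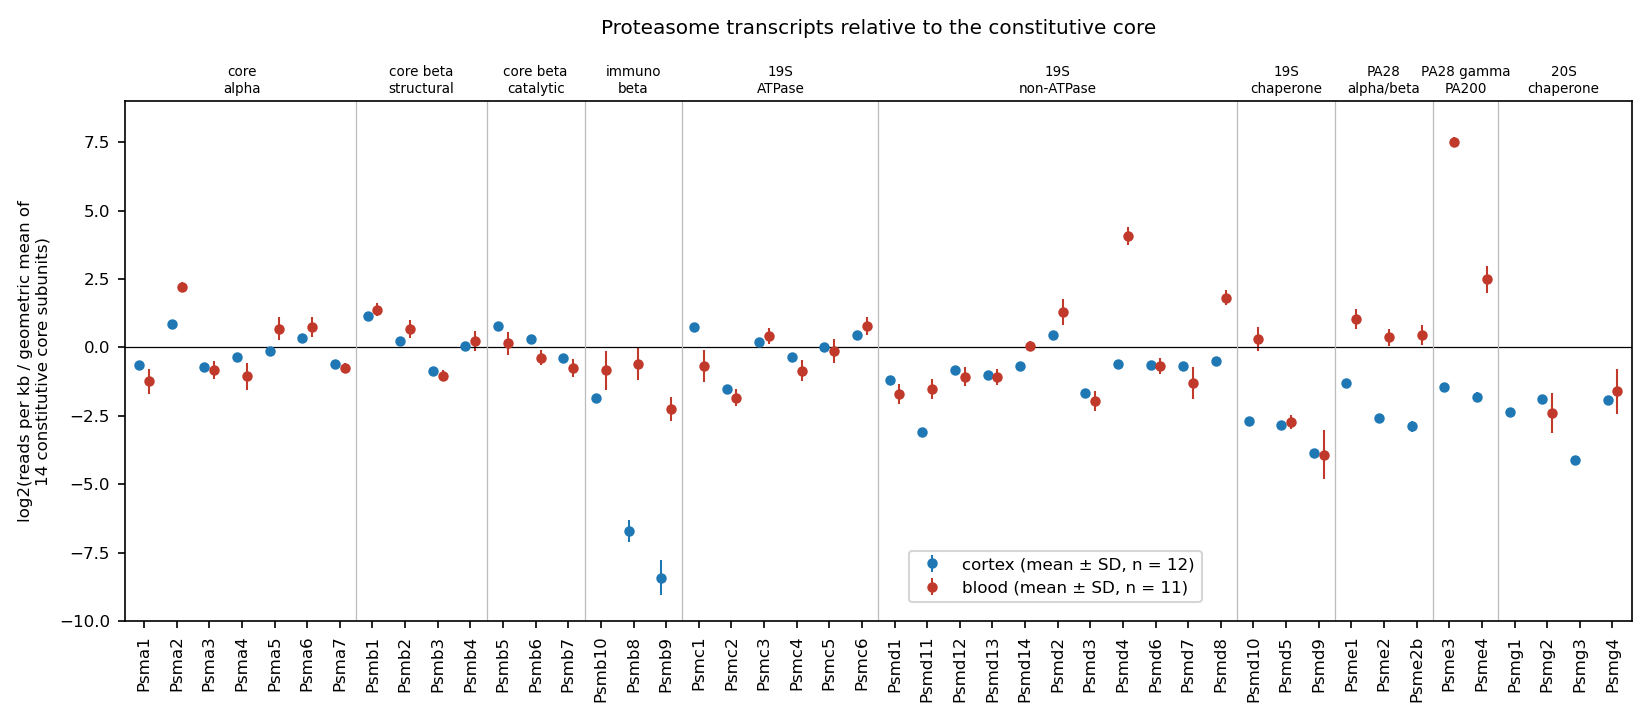
Level of each member relative to the geometric mean of the 14 constitutive core subunits of the same library (log2 of the ratio of reads per kb; points are means, bars SD; 12 cortex and 11 blood libraries). The constitutive core subunits average 0 in each library by construction and scatter around it, with Psma2 well above 0 in blood. Psme3, Psmd4 and Psme4 lie higher still in blood, and Psmb8 and Psmb9 far below 0 in cortex.

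Relative to the core, the member furthest apart between the tissues was Psme3. It was 0.338 to 0.400 times the core mean in cortex (median 0.359) and 153 to 213 times in blood (median 185), a 499-fold difference of the mean log2 ratios. Psmd4 was 25.5-fold and Psme4 19.8-fold higher in blood by the same measure. In none of these did any blood library without V2 reach down to a cortex library. V2 lay between the tissues for each of them, for example at 9.71 times its own core mean for Psme3.

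The interferon-inducible members were also higher in blood. Psmb9 was 72.3-fold and Psmb8 68.8-fold higher in blood relative to the core, Psme2b 10.2-fold, Psme2 7.69-fold and Psme1 5.06-fold. With V2 left out, the tissues did not overlap for these 5 genes. Psmb10, the third immunoproteasome subunit, was 2.00-fold higher with overlap: 0.249 to 0.315 times the core in cortex and 0.230 to 1.14 in blood. Some regulator subunits and one chaperone were also higher in blood without overlap, namely Psmd10 (8.02-fold; a 19S chaperone also called gankyrin), Psmd8 (5.02-fold), Psmd11 (2.99-fold), Psmd2 (1.80-fold) and Psmd14 (1.65-fold), the last a deubiquitinase of the lid. Within the core, Psma2 (2.57-fold) and Psma5 (1.76-fold) were higher in blood and Psmb6 lower (0.622-fold), and the ATPase Psmc1 was lower too (0.375-fold). Because the core mean is made of the core subunits themselves, some of them must be lower where others are higher. The remaining members overlapped between tissues or had libraries at 0. All these statements leave out V2. In V2 itself, Psme1 (0.399 times its core mean), Psma5 (0.935) and Psmd2 (1.14) lay within or below the cortex range. By TMM-scaled levels, also without V2, the tissues did not overlap for 33 of 44 members, against 68.7% of all genes tested.

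**Figure D2:**
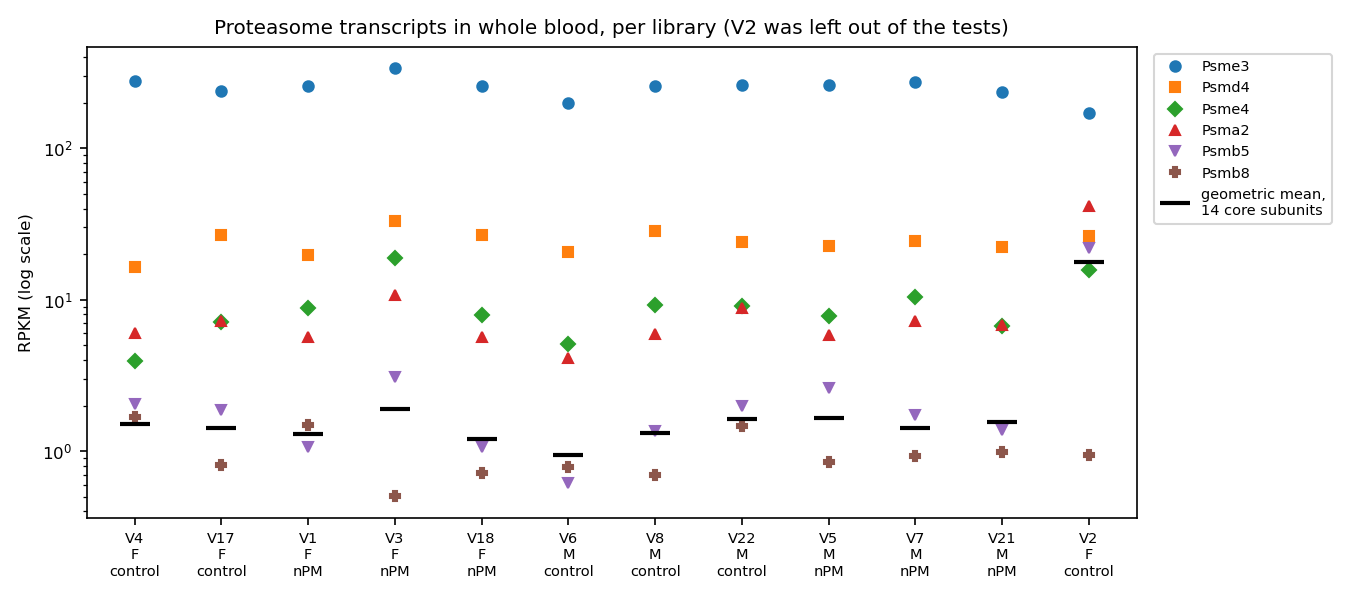
RPKM (on total counts, log scale) of 6 members in each of the 12 blood libraries, with black bars for the geometric mean of the 14 core subunits. Psme3 lies above every other member in all 12 libraries, and the core mean of V2 (17.7) is far above the 0.944 to 1.90 of the others.

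The fit across all genes, with TMM scaling and sex and exposure as covariates, was led by the same members. It tested 44 members, and 41 differed between tissues at an adjusted p under 0.05 (edgeR quasi-likelihood F test, Benjamini-Hochberg), where 90.9% of the 9602 genes tested did. Of the 41, 29 were higher in cortex and 12 in blood, against 49.4% and 41.4% of all genes. Cortex minus blood was -7.90 for Psme3 (SE 0.11, log2), -5.05 for Psmb8 (SE 0.17), -5.03 for Psmb9 (SE 0.25), -3.64 for Psmd4, -3.33 for Psme4, -1.88 for Psme2 and -1.30 for Psme1. The constitutive counterparts went the other way, Psmb5 by 1.60, Psmb6 by 1.75 and Psmb7 by 1.39, and the largest difference in favour of cortex was Psmc1 at 2.38. Psmb10 differed by -0.05 (SE 0.14, adjusted p = 0.7201) and Psma5 (0.19, SE 0.13) and Psmd2 (0.14, SE 0.16) also missed the threshold. These directions hang on the scaling: the median of all genes was 0.24 with TMM scaling and 4.67 with CPM alone, where 41 members were higher in cortex and only Psmb8, Psmb9 and Psme3 higher in blood. The median of the members lay above the median of all genes by 0.59 with TMM scaling and 0.61 without it. RNA integrity number was 9.4 to 9.9 in cortex and 7.5 to 9.3 in blood without V2, and was not a covariate here. Sequencing lane 1 held only blood, lane 2 only cortex and lane 3 both. Tissue therefore cannot be told apart from RNA quality, nor fully from lane, here or in the ratios below.

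The balance of each immunoproteasome subunit against the subunit it replaces needs no scaling between libraries. Psmb8 over Psmb5, as reads per kb, was 0.327% to 0.810% in the 12 cortex libraries (median 0.573%) and 16.2% to 140% in the 11 blood libraries (median 66.9%). Mean log2 ratios differed by 6.74 (SE 0.29), or 107-fold (permutation test, two-sided, 100000 resamples, p = 2e-05, the smallest they can give, and adjusted p = 6e-05 over 9 ratio comparisons). Psmb9 over Psmb6 ran from 0.143% to 0.679% in cortex and from 13.3% to 79.9% in blood, a difference of 6.86 (SE 0.28), or 116-fold, with the same p-values. For both pairs every blood library lay above every cortex library, V2 included at 4.34% and 1.92%.

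Psmb10 over Psmb7 behaved differently. It was 33.1% to 40.4% in cortex, a narrow band, and 36.0% to 176% in blood, so that the tissues overlapped. The difference was 1.37 (SE 0.23), or 2.58-fold, with p = 2e-05 and adjusted p = 6e-05 in the same permutation test. With V2, at 13.3%, the permutation test gave 1.13 (p = 0.00194). The blood ratios rest on few molecules: Psmb5 had 10 to 55 counts, Psmb6 23 to 56, Psmb8 26 to 101, Psmb9 12 to 50 and Psmb10 7 to 61 per blood library without V2.

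**Figure D3:**
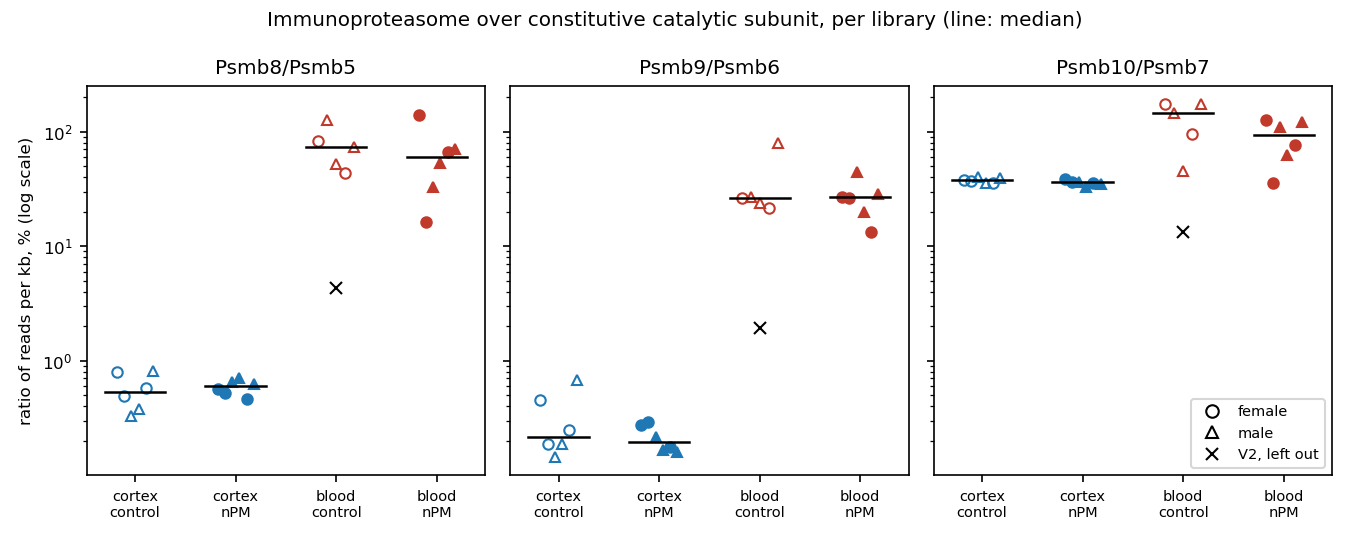
Immunoproteasome over constitutive catalytic subunit in each library (ratio of reads per kb in percent, log scale; open symbols control, filled nPM, circles female, triangles male, cross the left-out library V2; lines are medians). Blood lies far above cortex for Psmb8/Psmb5 and Psmb9/Psmb6, the tissues overlap for Psmb10/Psmb7, and nPM and control overlap in every panel.

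The promoters of the pair Psmb8 and Psmb5, whose ratio differed 107-fold between the tissues, are shown as an example. Each is 250 bases before to 50 bases after a RefSeq transcript start in GRCm38.p6, written 5′ to 3′ in the direction of transcription, and 44 such windows were matched to 41 members. Psmb8, chr17:34197945-34198244, plus strand, has in capitals a match to the gamma-interferon activated site TTCNNNGAA at position -97. It also holds TGANNNNGC, left in lower case. Psmb5, chr14:54617946-54618245, minus strand, has in capitals 2 matches to TGANNNNGC, used here as a loose pattern for the antioxidant response element core. The stress factors Nfe2l1 and Nfe2l2 bind that element, but not every match to the loose pattern need be one.

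Psmb8: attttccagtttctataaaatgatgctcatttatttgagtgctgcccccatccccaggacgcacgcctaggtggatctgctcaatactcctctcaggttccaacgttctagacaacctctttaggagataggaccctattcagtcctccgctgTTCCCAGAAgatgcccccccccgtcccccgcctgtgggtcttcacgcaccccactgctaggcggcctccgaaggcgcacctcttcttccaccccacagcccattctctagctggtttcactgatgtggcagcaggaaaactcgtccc

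Psmb5: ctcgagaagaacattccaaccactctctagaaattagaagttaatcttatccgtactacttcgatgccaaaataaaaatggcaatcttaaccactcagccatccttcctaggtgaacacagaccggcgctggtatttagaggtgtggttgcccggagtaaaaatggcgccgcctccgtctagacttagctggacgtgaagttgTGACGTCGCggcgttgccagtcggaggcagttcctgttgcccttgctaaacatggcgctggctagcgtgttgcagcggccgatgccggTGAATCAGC

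Both strands were searched in 32851 mouse windows of this length, and a motif may overlap another. TTCNNNGAA was in 8.3% of all windows and in 3 of the 44 members' windows (Psmb8, Psmd2 and Psmg1). No window of Psmb9, whose ratio to Psmb6 differed 116-fold between the tissues, matched it. TGANNNNGC was in 41.3% of all windows and in 26 of the 44 (59.1%), so its presence marks no gene by itself. A match is a stretch of letters, not a shown binding site. The annotated gene start of Psmb8 lies upstream of the RefSeq start used for the window.

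No member of either tissue passed a cutoff for exposure when both sexes were fitted together. The cutoff was the study's unadjusted p under 0.005, beside an adjusted p under 0.05 (edgeR quasi-likelihood F test with sex and RNA integrity number, RIN, as covariates). In cortex 0 of 48 members tested passed the unadjusted cutoff, against 0.614% of all genes, and 1 was under an unadjusted p of 0.05, against 5.67%. The fold change was above 0 for 40 of the 48, where 48.9% of all genes were, and their median log2 fold change was 0.044. In blood 0 of 44 passed, against 0.17% of all genes, 1 was under an unadjusted p of 0.05, against 3.11%, and 23 of the 44 were above 0, against 50.4%. limma voom and DESeq2 also gave 0 in both tissues. Including V2 left the blood counts at 0 and 1, with 15 of 44 above 0.

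The member of cortex with p under 0.05 was Psme1, the alpha subunit of PA28. Its levels in cortex were 18.1, 18.5 and 19.02 RPKM in female controls, 20.6, 23.2 and 24.6 in nPM females, 18.5, 20.9 and 21.2 in male controls and 20.2, 21.05 and 21.8 in nPM males. Female groups did not overlap and male groups did. The log2 fold change over both sexes was 0.18 (SE 0.06, adjusted p = 0.844 in edgeR), and an exact permutation test of the log2 levels gave a two-sided p of 0.0216. That unadjusted test used the same values by which Psme1 had been picked among the members, so it adds no independent support. Within sequencing lanes the nPM minus control difference was 0.11 in lane 2 (4 against 4 libraries) and 0.32 in lane 3 (2 against 2). Its partner Psme2 gave 0.06 (SE 0.10) and the retro-copy Psme2b 0.11 (SE 0.14).

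In blood the member was Psmg4, a chaperone of 20S assembly, with 2 to 4 counts in nPM males, 3 to 6 in nPM females, 3 to 13 in male controls and 6 and 10 in female controls. nPM minus control came to -1.11 on the log2 scale (SE 0.46, adjusted p = 1.00 in edgeR, exact permutation p = 0.0130), with -1.19 in lane 1 and -0.78 in lane 3, and -1.04 with V2. The permutation test again used the values by which the gene had been picked. At so few counts a finer statement is not possible. Psme1 gave -0.41 in blood (SE 0.20, exact permutation p = 0.121) and -0.18 with V2. Psme3, the dominant cap in blood, gave 0.04 (SE 0.21), with an interval of 2 SE to either side from -0.37 to 0.45.

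None of the immunoproteasome subunits passed a cutoff for exposure in either tissue, and their errors were wide. In cortex the log2 fold changes were 0.06 for Psmb8 (SE 0.21), -0.48 for Psmb9 (SE 0.38) and -0.03 for Psmb10 (SE 0.07). The negative value of Psmb9 rested on V24, a male control with 0.438 RPKM against 0.0967 to 0.250 in the other 11, and without V24 it was -0.0016. V24 also had the highest Psmb8 (0.7202 RPKM), the highest microglia sum (282 CPM against 175 to 239) and the highest interferon sum (57.6 CPM against 34.1 to 43.5), and their part in the result was not tested. In blood the values were -0.27, -0.16 and -0.53 (SE 0.23, 0.31 and 0.32). The ratios to Psmb5, Psmb6 and Psmb7 gave exact permutation p-values of 0.561, 0.370 and 0.147 in cortex and 0.442, 0.506 and 0.307 in blood (two-sided, lowest adjusted p = 0.331).

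Split by sex, cortex gave a different picture from the pooled fit. In female cortex 8 of 48 members passed the unadjusted cutoff, all higher after nPM, where 1.19% of all genes were higher and 4.02% passed in either direction. They were Psme1, the alpha subunits Psma2, Psma4, Psma6 and Psma7, the beta subunits Psmb2 and Psmb6, and the ATPase Psmc6. No member had an adjusted p under 0.05 over all genes (the smallest was 0.0565, for Psme1), where 1.11% of all genes did. Testing genes with a count in any library gave 8 members with an adjusted p under 0.05, and DESeq2 gave 2. The shares of all genes under these settings are not given here, so those counts cannot be set against them. A further look at unadjusted p under 0.05 counted 24 members, 23 of them higher, against 15.4% of all genes and 6.41% for that direction. The fold change was above 0 for 43 of 48 members, against 49.6% of all genes, with a median of 0.11.

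The size of these differences was small. Psma6 stood at 56.5, 57.0 and 59.1 RPKM in female controls and 64.7, 67.8 and 68.0 in nPM females, a log2 fold change of 0.21 (SE 0.05, edgeR adjusted p = 0.0589). Psmb6, the constitutive caspase-like subunit, stood at 55.1, 55.8 and 56.4 against 62.3, 62.7 and 67.3, a change of 0.19 (SE 0.05, adjusted p = 0.0723). Every nPM female lay above every control female for both genes, as for Psme1, which had the largest change of the 8 at 0.30 (SE 0.07). The other 5 lay between 0.18 and 0.22. Groups did not overlap for 28 members in the higher direction (9.51% of all genes) and 1 in the lower (11.4%), the latter being Psme4 at -0.15 (SE 0.05).

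By class, all 7 alpha subunits, all 4 structural and all 3 catalytic beta subunits and all 6 ATPases had fold changes above 0 in female cortex, with medians of 0.18, 0.14, 0.13 and 0.14. The 11 non-ATPase subunits had a median of 0.098, with 9 above 0. The immune PA28 genes had the highest class median, 0.30, from Psme2 at 0.20 to its retro-copy Psme2b at 0.41, whose reads may be shared, while Psme3 (-0.03) and Psme4 were below 0. The immunoproteasome subunits gave -0.11 for Psmb8 (SE 0.28), 0.07 for Psmb9 (SE 0.44) and 0.15 for Psmb10 (SE 0.07), none past the cutoff. Within lanes, Psme1 gave 0.22 (2 against 2 libraries) and 0.44 (1 against 1), Psma6 0.19 and 0.26, and Psmb6 0.23 and 0.14. The count of 8 changed with single libraries left out: it was 0 without the nPM female V11, 2 without the control V19, and 3 without the control V12 or the nPM female V20. For these smaller fits the shares of all genes are not given here. A loss of power can therefore not be told apart from dependence on a library.

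**Figure D4:**
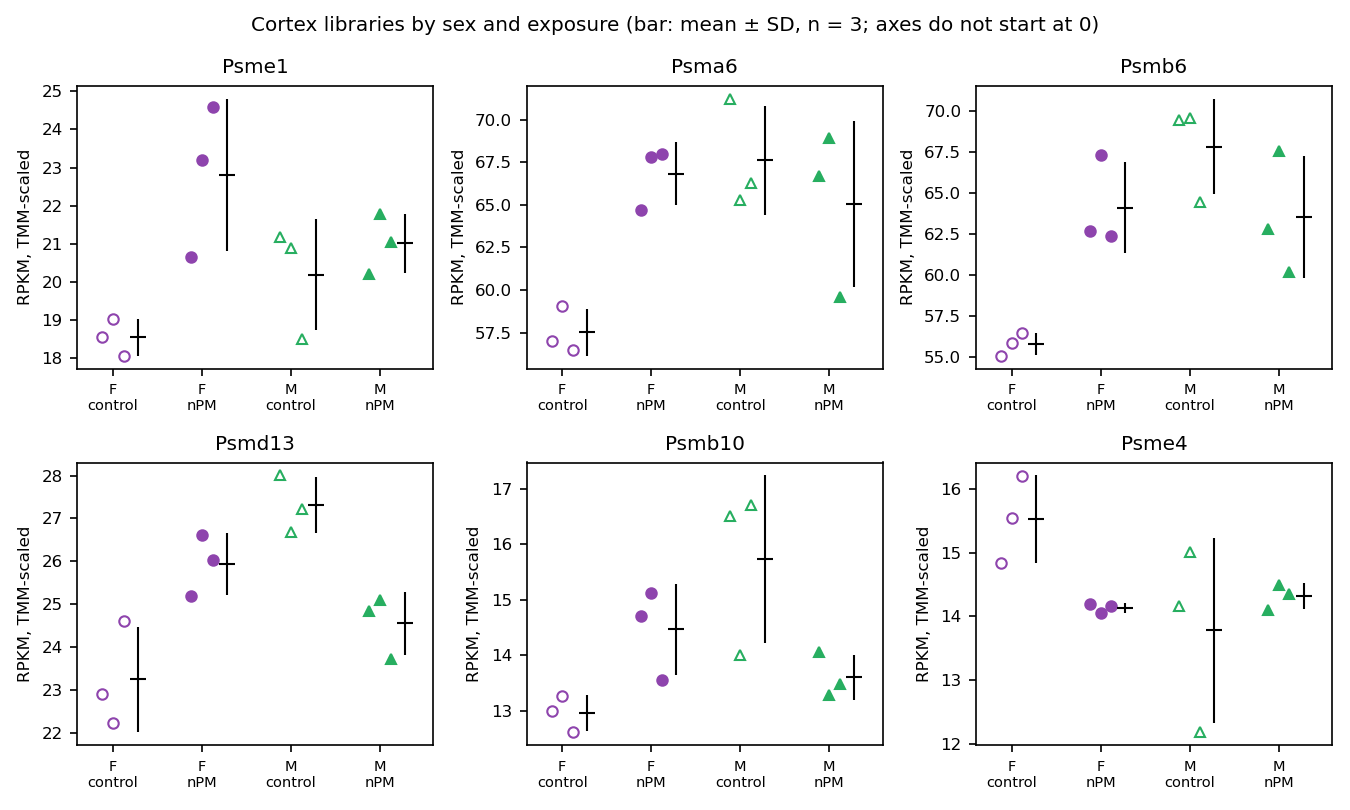
RPKM of 6 members in each cortex library by sex (F, M) and exposure, with the mean and SD of each group of 3 beside the points; the axes do not start at 0. For Psme1, Psma6 and Psmb6 the female controls sit below the other groups or at their lower edge, Psmd13 and Psmb10 have their highest group mean in male controls, and Psme4 has its highest in female controls.

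In male cortex 0 of 48 members passed the unadjusted cutoff, against 0.318% of all genes (also 0 by limma voom and DESeq2), and 2 were under an unadjusted p of 0.05, against 4.51%. Both were lower after nPM, as 2.03% of all genes were: the lid subunit Psmd13, at 26.7, 27.2 and 28.01 RPKM in controls and 23.7, 24.8 and 25.1 after nPM (-0.18, SE 0.06, edgeR adjusted p = 0.962), and Psmb10, at 14, 16.5 and 16.7 against 13.3, 13.5 and 14.1 (-0.27, SE 0.09, adjusted p = 0.962). The groups did not overlap for Psmd13 and did for Psmb10. The fold change was above 0 for only 10 of 48 members, against 50.8% of all genes, with a median of -0.089. All 14 core subunits and all 6 ATPases were below 0. Psmb9 gave -1.29 (SE 0.60), and -0.03 without V24.

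The difference between the sexes was tested as an interaction in the fit of all 12 cortex libraries. As male minus female effect, 6 of 48 members passed the unadjusted cutoff, all below 0, where 0.604% of all genes passed below 0 and 1.35% in either direction. Psmd13 gave -0.31 (SE 0.08, edgeR adjusted p = 0.321), Psma6 -0.30, Psma7 and Psmb6 -0.28 each, Psma4 -0.27 and Psmc6 -0.26. At an unadjusted p under 0.05 there were 23 members, 22 of them below 0, against 9.68% of all genes and 4.68% for that direction, and no gene of the whole table had an adjusted p under 0.05. Of the 48 members, 36 were higher in females and lower in males, 7 higher in both, 2 lower in both and 3 the reverse. The count of 6 fell to 0 without the male control V14 or the nPM male V23, to 1 without V10, V11, V12 or V13, to 2 without V19 and to 3 without V9 or V20. Here too the shares of all genes in the smaller fits are not given, so lost power cannot be told apart. The V14 library had the low choroid plexus sum given above, and the part of that in the result was not tested.

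**Figure D5:**
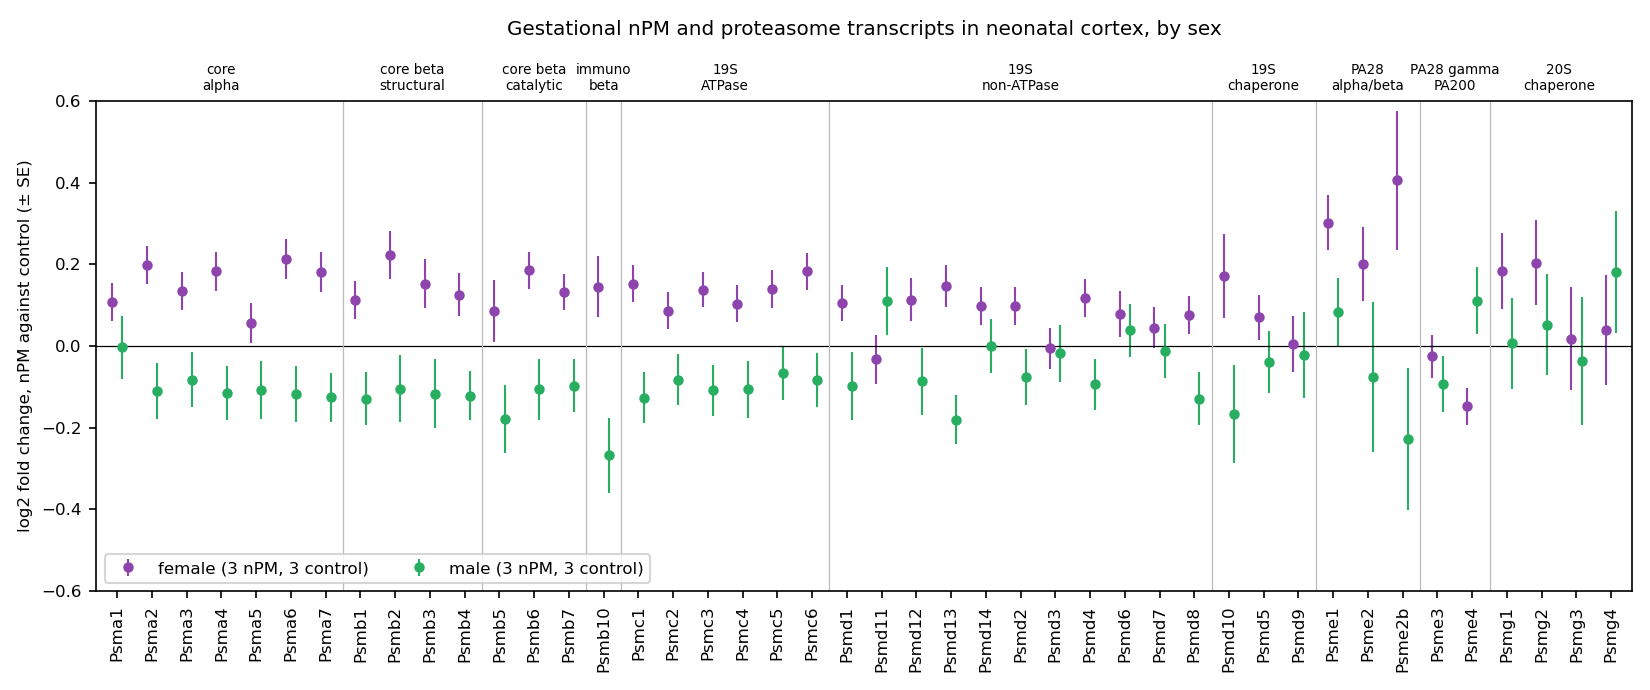
Log2 fold change of nPM against control in female and male cortex (separate edgeR fits, points with SE bars, 3 against 3 libraries in each sex); Psmb8 and Psmb9 are left out for their wide errors, as are Psma8, Psmb11 and Psmc3ip. The alpha, beta and ATPase subunits lie above 0 in females and below 0 in males. Of the 11 non-ATPase subunits, 9 lie above 0 in females and 9 below 0 in males.

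The levels behind this interaction were compared between the sexes after the values had been seen. In control cortex every female library lay below every male library for 14 of 14 core subunits and for 33 of 48 members, where 10.1% of all genes did, and no member showed the reverse (9.36% of all genes). After nPM, females lay wholly below males for 1 member and wholly above for 2, against 4.1% and 4.75% of all genes, and for 0 of 14 core subunits in the lower direction. The median female minus male difference of the core was -0.22 in controls and 0.016 after nPM (log2), and that of all genes was 0.0099 and 0.00084. Every female control was below every nPM female for 11 of the 14 core subunits, against 9.51% of all genes. Every nPM male was below every male control for 2 of 14, against 4.37% of all genes. As a library's median deviation of the core from the cortex average, the female controls stood at -0.17, -0.13 and -0.09, the nPM females at -0.02, 0.02 and 0.09, the male controls at 0.05, 0.05 and 0.14 and the nPM males at -0.06, 0.02 and 0.08. The female controls were the lowest group, and their values enter both the female effect and the comparison of control sexes.

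The promoters of Psme1 and Psmb6, the activator and the catalytic subunit named in female cortex, are shown with their motif in capitals. Psme1, chr14:55578244-55578543, plus strand, holds at position 10 a match on the reverse strand to the interferon-stimulated response element core, which is GAAA, any 2 bases and GAAA. Psmb6, chr11:70525107-70525406, plus strand, holds TGANNNNGC at position -9.

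Psme1: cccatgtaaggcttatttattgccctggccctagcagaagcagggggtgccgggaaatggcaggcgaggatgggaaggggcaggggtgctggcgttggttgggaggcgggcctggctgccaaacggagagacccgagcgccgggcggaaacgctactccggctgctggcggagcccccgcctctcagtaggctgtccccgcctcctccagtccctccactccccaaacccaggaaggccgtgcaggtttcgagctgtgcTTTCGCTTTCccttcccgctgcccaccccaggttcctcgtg

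Psmb6: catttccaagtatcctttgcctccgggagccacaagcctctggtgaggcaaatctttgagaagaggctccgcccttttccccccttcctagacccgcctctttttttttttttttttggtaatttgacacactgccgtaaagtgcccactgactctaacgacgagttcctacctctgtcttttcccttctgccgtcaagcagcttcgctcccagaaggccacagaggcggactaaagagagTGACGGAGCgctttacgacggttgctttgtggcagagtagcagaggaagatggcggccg

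The interferon-stimulated motif was in 3.44% of all windows and in 5 of the members' 44 windows (11.4%), those of Psmb3, Psmd4, Psmd9, Psme1 and Psmg4. Of the 8 members past the cutoff in female cortex, 7 had a window and 5 of these, Psma4, Psma6, Psma7, Psmb6 and Psmc6, held TGANNNNGC. Among all members with a window 24 of 41 held it, as did 41.3% of all windows, so the count marks no feature of the 8. The annotated start of Psme1 lies upstream of the RefSeq start used here.

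Blood split by sex gave no member past the cutoff. In female blood (3 nPM and 2 control libraries without V2) it was 0 of 45 members, against 0.745% of all genes, and 4 were under an unadjusted p of 0.05, all higher, against 8.11% and 4.2% for that direction. limma voom and DESeq2 each let 1 member pass. The largest was Psme4, at 3.10 and 8.17 RPKM in controls and 8.71, 9.10 and 18.7 after nPM, a log2 difference of 1.34 (SE 0.43, edgeR adjusted p = 0.573), which was 1.73 with V2 and 0.94 without the nPM female V3. The lane 1 difference was 2.05 (2 against 1 libraries) and that of lane 3 was 0.16 (1 against 1). Psma5 (1.06), Psmc6 (0.82) and Psmd2 (0.80) were the others, and with V2 Psmc6 was 0.41. The platelet marker sum was 281, 422 and 177 CPM in the nPM females and 168 and 152 CPM in the female controls, and the nPM female V3, which had the 422 CPM, also had the 18.7 RPKM of Psme4. Other lists moved in female blood too, where 47% of all genes were above 0. All 11 erythroid genes tested were above 0 (median 0.41), and all 7 B cell genes (median -0.79) and all 9 T and NK cell genes (median -0.84) were below 0. The part of these in the result was not tested.

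In male blood 0 of 44 members passed, against 0.33% of all genes, and 1 was under an unadjusted p of 0.05, against 3.86%, or 1.8% in its direction. This was Psme1, at 2.82, 2.95 and 4.92 RPKM in controls and 2.08, 2.48 and 2.57 after nPM, a log2 difference of -0.83 (SE 0.29, edgeR adjusted p = 1.00). The groups did not overlap, but without the control V22, which had 4.92 RPKM and an interferon sum of 761 CPM against 110 to 358 in the other blood libraries without V2, it was -0.41 (SE 0.31). In the interaction 0 of 44 members passed, against 0.902% of all genes, and 7 were under an unadjusted p of 0.05, all below 0, against 10.7% of all genes and 5.65% for that direction. With V2 there were 2. Psme4 was the first of them at -1.55 (SE 0.53, edgeR adjusted p = 0.452).

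Genes that work with the proteasome but fall outside the name rule were read from a list of 24, of which 22 were found. In female cortex 1 of 22 passed the unadjusted cutoff, a share near the 4.02% of all genes: Txnl1, a thioredoxin of the 19S regulator, at 0.20 (SE 0.05, edgeR adjusted p = 0.0997). In the other comparisons of exposure and in the interactions 0 passed, and among the smallest p-values were those of Txnl1 (log2 fold change 0.13) and the inhibitor Psmf1 (0.12) in cortex, Nfe2l1 (0.39) and Adrm1 (-0.35) in blood, Zfand2a (-0.12) in male cortex, Sem1 (0.88) and Vcp (0.74) in female blood and Psmf1 (-0.58) and Ngly1 (-0.54) in male blood. Between tissues, 9 of 20 tested were higher in cortex and 10 in blood, where 49.4% and 41.4% of all genes were. The inhibitor Psmf1 (-4.36, cortex minus blood) was called higher in blood, as was Psme3.

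The 13 genes of MHC class I antigen processing held no gene past the cutoff in any comparison of exposure. In male cortex 12 of the 13 were below 0 (median -0.24), with H2-K1 at -0.92 (SE 0.38, edgeR adjusted p = 0.962) and B2m at -0.37, and in female cortex 9 of 13 were above 0 (median 0.036). In male blood H2-D1 gave -1.22 (SE 0.39, edgeR adjusted p = 1.00) and B2m -1.55. Of the 18 interferon response genes 15 were tested in blood, and 1 passed, Ifit3 (-1.72, SE 0.51, edgeR adjusted p = 1.00), against 0.17% of all genes. In male blood 2 of 15 passed, Ifit3 (-2.75) and Igtp (-1.38), against 0.33% of all genes. All 15 were below 0 in male blood, where 51.1% of all genes were above 0. The library V22 with its high interferon sum is one of the male controls in these values. In male cortex 15 of 17 were below 0, with Irgm1 at -0.73 (SE 0.25, edgeR adjusted p = 0.962), and all 9 microglia markers were below 0 as well (median -0.26), with V24 again a male control of the highest sum. Choroid plexus markers were above 0 after nPM for all 6 genes in both sexes (median 0.22 in females and 0.75 in males). In female cortex 1 of the 6 passed the unadjusted cutoff, against 1.19% of all genes in that direction. The control V14 with its low sum is male and enters only the male values. The part of these shifts in the members' values was not tested.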

How the data were processed

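Whole-blood and cortex RNA was made into ribosomal-RNA-depleted libraries (24 in all). The authors trimmed reads with Trimmomatic, aligned them with HISAT2 to mm10 (GRCm38) and deposited a table of raw read counts per Gencode M11 gene from featureCounts 1.5.0-p3; strand setting and handling of multi-mapping reads are not given in the sources used here. The authors also deposited each gene's length and its mean RPKM over the libraries, a pooled value that was not used; RPKM were computed here from the counts and those lengths.

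Tests ran on genes that had a count (1 or more) in each library fitted, with edgeR 4.0.16 in R 4.3.3 (TMM scaling, quasi-likelihood F test, Benjamini-Hochberg adjustment). Fits of exposure and of its interaction had RIN, and sex where both sexes entered, as covariates. The fit between tissues had sex and exposure as covariates and not RIN. The cutoffs were an unadjusted p of 0.005, as in the study, and an adjusted p of 0.05. Log2 ratios of catalytic pairs were tested by permutation. limma 3.58.1 (voom), DESeq2 1.42.0, other filters, scalings and covariates, and libraries left out were alternatives, and scripts were tested on simulated data. The authors left out 1 blood library that they do not name, and V2 was left out here for its count distribution. No 2 libraries of a group were copies (lowest chi-square per gene 9.15, where sampling alone gives about 1). Genes were named by rule: the catalytic and immunoproteasome subunits and PA28 genes in every comparison, the 5 members with the smallest p in each comparison of exposure, and the highest and lowest member of each class. The members and lists were chosen with earlier results of these data known. Promoters are RefSeq windows of GRCm38.p6, from 250 bases before to 50 after a start.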

Additional observations from a re-analysis of the deposited data

Results flagged for a closer look

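Of 60 groups of 4 to 10 libraries, 4 held a library far from the others by Dixon's test at the 95% level, where chance alone gives about 1 in 20. Psme2 in control cortex was 10.3 RPKM in V16, with the nearest library at 8.37. Psme4 in nPM blood was 18.7 RPKM in V3, with the nearest at 10.6. Psmb9 in control blood was 0.611 RPKM in V22, with the nearest at 0.296, and its ratio to Psmb6 in the same library was 0.799, with the nearest at 0.267. V22 also had the highest interferon sum, whose part in these values was not tested.

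By the interaction term in cortex, 6 of 48 members had an unadjusted p under 0.005, against 1.35% of all genes. All 6 were below 0, against 0.604% of all genes. They were Psmd13 (-0.31, male minus female, log2), Psma6 (-0.30), Psma7 (-0.28), Psmb6 (-0.28), Psma4 (-0.27) and Psmc6 (-0.26). None of the 6 had an adjusted p under 0.05, and the count changed with single libraries left out, as given above.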

How the results depend on the processing

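No paired analysis was possible because the labels give the libraries no replicate numbers that tie them across groups. Counts of members past the cutoff differed by over 1.5 times from those above in these cases, and the shares of all genes under these alternatives are not given here. Counting genes with a count in any library gave 1 in cortex, 2 in the cortex interaction, 1 in the blood interaction and 2 in female blood. Asking for 10 counts in every library gave 2 in the cortex interaction. limma voom gave 3 in the cortex interaction and 1 in female blood, and DESeq2 gave 1 in the blood interaction and 1 in female blood. With 1 library left out, the counts ran from 0 to 1 in cortex (1 without V14 or V16), 0 to 8 in the cortex interaction (0 without V14 or V23), 0 to 4 in the blood interaction (4 without V18, 1 without V7), 0 to 8 in female cortex (0 without V11, 2 or 3 without V12, V19 or V20), 0 to 1 in male cortex (1 without V14), 0 to 4 in female blood (4 without V18) and 0 to 1 in male blood (1 without V8). The count in female cortex was 7 to 10 under every other alternative, all of them higher, and 8 members had an adjusted p under 0.05 when genes with a count in any library were tested. Tissue calls ran from 37 to 42 members under adjusted tests. For the ratios, nPM minus control of Psmb9/Psmb6 in cortex was -1.28 within lane 3 and, without 1 library, -0.55 to -0.11. In blood that of Psmb8/Psmb5 was 0.22 with V2, that of Psmb9/Psmb6 was 0.015 by medians, 0.35 with V2 and -0.48 to 0.025 without 1 library (the latter without V22), and that of Psmb10/Psmb7 was 0.030 with V2 and -0.82 to -0.25 without 1 library (-0.82, exact permutation p = 0.0476, without V8). The cause of these shifts was not tested. No direction past a cutoff was reversed under these alternatives, save between tissues by CPM without scaling factors, as given above. Female blood was not refitted without V4 or V17, which would leave 1 control. Few counts in blood, as low as 7 for Psmb10, limit the precision there.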
